A study of Mus musculus with 4 samples.

Results

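The sarcomere and myogenic genes are 36 genes of skeletal muscle: the transcription factors that start the muscle programme and the proteins of the contractile apparatus, in their embryonic, fast and slow forms. They were taken by gene name from the annotation carried in the array files, and all 36 were found, on 71 of 41174 probes and among 27674 named genes. Where several probes carried a gene's name, the gene was read at the probe with the highest mean log2 level over the 4 arrays, and detection refers to that probe unless another is named. RNA of mouse embryos at embryonic day E13.5 was hybridised to 4 single-colour Agilent arrays, 1 each for CKO limb, WT limb, CKO brain and WT brain. CKO is the conditional knockout of Rest, a transcriptional repressor of neuronal genes, made from Rest-floxed mice in which doxycycline given over E8.5 to E13.5 induced Cre recombinase. The doxycycline treatment is recorded for all 4 samples, WT included, and all 4 are of mixed 129 and C57BL/6 background. Whether the WT embryos carried Cre or floxed alleles, which promoter drove Cre, and whether a sample was 1 embryo or a pool are not given in the sources used here. With 1 array per group no difference has a replicate check, so values are given as differences between these arrays, with no p-value.

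Skeletal muscle of the limb forms from migrating progenitors in which the basic helix-loop-helix factors Myf5, Myod1, Myog and Myf6 act in sequence, and these factors bind the E-box, CANNTG, at muscle genes. Differentiating cells then fuse and assemble sarcomeres, in which thick filaments of myosin slide along thin filaments of actin under the control of troponin and tropomyosin. Embryonic fibres use embryonic and perinatal myosins and also make isoforms that later belong to slow fibres or to the heart.

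Each level below is the log2 of the scanner's processed signal minus the log2 of that array's 75th percentile, so that 0 is the 75th percentile of the array, and levels are compared only within a probe. Between 62.7% and 70.7% of the 43379 non-control spots were well above background on each array, and no member's spot was saturated. At its 3 probes Rest, whose floxed part was not placed relative to the probes, was lower in CKO limb than in WT limb, by 4.03-, 17.2- and 15.7-fold, and lower in CKO brain than in WT brain, by 1.88-, at least 6.60- and 11.9-fold. A fold written "at least" belongs to a probe well above background on only 1 array of the pair, and is computed against the higher of the dim probe's own signal and the lowest signal among detected probes. Single spots of repeated probes brighter than the 75th percentile gave a difference with an SD of 0.037 between the limb arrays and 0.033 between the brain arrays. For probes under a level of -3 that SD was 0.18 and 0.15, and it covers error within an array only.

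The E-box is shown here in up to 250 bases before the RefSeq start of 7 members. They are the 5 with the largest difference between the limb arrays among those whose RefSeq promoter window begins transcription at, or within 50 bases of, the gene's annotated 5′ end, with Myh3 for its difference between the brain arrays, and Tpm3, whose level was nearly the same on all 4 arrays. Sequences are from RefSeq on GRCm38.p6, 5′ to 3′ on the gene's strand, with each CANNTG in capitals.
Mybph, chr1:134193198-134193417, plus strand: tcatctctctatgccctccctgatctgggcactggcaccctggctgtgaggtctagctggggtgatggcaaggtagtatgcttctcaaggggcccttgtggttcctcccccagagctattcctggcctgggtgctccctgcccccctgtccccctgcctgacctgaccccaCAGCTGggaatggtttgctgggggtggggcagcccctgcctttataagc
Actn2, chr13:12340733-12340982, minus strand: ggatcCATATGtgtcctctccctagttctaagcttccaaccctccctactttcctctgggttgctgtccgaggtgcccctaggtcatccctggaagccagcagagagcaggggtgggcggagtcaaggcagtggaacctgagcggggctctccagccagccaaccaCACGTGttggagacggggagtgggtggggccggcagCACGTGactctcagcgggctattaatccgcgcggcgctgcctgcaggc
Tnnt2, chr1:135836084-135836314, plus strand: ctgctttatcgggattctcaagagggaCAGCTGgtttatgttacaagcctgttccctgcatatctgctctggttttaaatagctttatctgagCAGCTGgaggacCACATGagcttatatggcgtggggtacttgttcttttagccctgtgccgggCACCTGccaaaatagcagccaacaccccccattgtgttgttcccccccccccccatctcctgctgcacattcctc
Myog, chr1:134289754-134290003, plus strand: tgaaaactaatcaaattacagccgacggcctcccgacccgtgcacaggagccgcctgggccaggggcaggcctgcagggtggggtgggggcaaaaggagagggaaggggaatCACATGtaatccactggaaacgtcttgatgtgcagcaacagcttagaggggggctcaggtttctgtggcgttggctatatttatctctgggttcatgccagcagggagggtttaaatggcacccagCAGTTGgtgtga
Tnnt1, chr7:4515976-4516225, minus strand: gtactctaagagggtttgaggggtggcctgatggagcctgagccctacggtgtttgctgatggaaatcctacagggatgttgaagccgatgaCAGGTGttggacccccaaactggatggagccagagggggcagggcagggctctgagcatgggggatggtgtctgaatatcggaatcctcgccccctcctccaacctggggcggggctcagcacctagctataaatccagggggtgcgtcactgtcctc
Myh3, chr11:67078050-67078272, plus strand: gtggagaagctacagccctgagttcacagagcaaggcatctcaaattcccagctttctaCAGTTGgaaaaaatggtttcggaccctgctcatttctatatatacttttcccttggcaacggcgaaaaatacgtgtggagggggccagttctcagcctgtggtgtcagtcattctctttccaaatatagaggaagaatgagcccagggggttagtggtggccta
Tpm3, chr3:90072401-90072650, plus strand: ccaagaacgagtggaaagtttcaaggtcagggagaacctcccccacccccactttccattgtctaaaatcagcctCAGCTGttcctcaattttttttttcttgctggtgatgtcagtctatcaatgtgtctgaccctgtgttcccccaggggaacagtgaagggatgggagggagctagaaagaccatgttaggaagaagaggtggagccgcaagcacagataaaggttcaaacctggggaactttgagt
Counting back from the gene's annotated 5′ end, with -1 the base before it, Mybph held CAGCTG with its first base at -49, and Tnnt2 held CAGCTG at -204 and -138. Tpm3 held CAGCTG at -175, so the letters also stood before a gene that did not differ between genotypes. CANNTG, which reads the same on both strands apart from its 2 middle bases, was in the 250 bases before a RefSeq start in 24 of 29 members with a sequence (82.8%) and in 69.3% of all 27025 genes with one. CAGCTG, a subset of CANNTG that reads identically on both strands, was in 12 of 29 members (41.4%) and in 14.7% of all genes. These are matches of letters only. Tnnt3, Myf6, Tcap, Neb, Myod1, Actn3 and Tnni2 had no entry.

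Muscle genes were slightly and broadly brighter on the CKO limb array than on the WT limb array. Of the 36 members, 33 were higher in CKO limb, Myh2 and Myl2 were lower, and Myf5 had no measurable difference. The median difference was 0.39 (1.31-fold), with quartiles of 0.31 and 0.54. Over all 18470 genes tested the median was -0.02, and 40% of genes were higher in CKO limb. No member reached 2-fold in either direction, where 2.49% of all genes passed that threshold upward and 2.16% downward. Mybph, Actn2, Tnni1, Tnnt2, Myog and Tnnt1 were at least 1.5-fold higher, which is 6 of 36 members beside 4.78% of all genes, and 1 was at least 1.5-fold lower, beside 4.72%. That 1 was Myh2, whose probes differed in direction. The 28 members whose mean level over both limb arrays was above 0 were all higher, with a median difference of 0.43, against a median of -0.02 over the 8091 genes of that brightness. In bulk tissue, a different share of muscle cells and a different amount of RNA per muscle cell cannot be told apart.

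**Figure D1:**
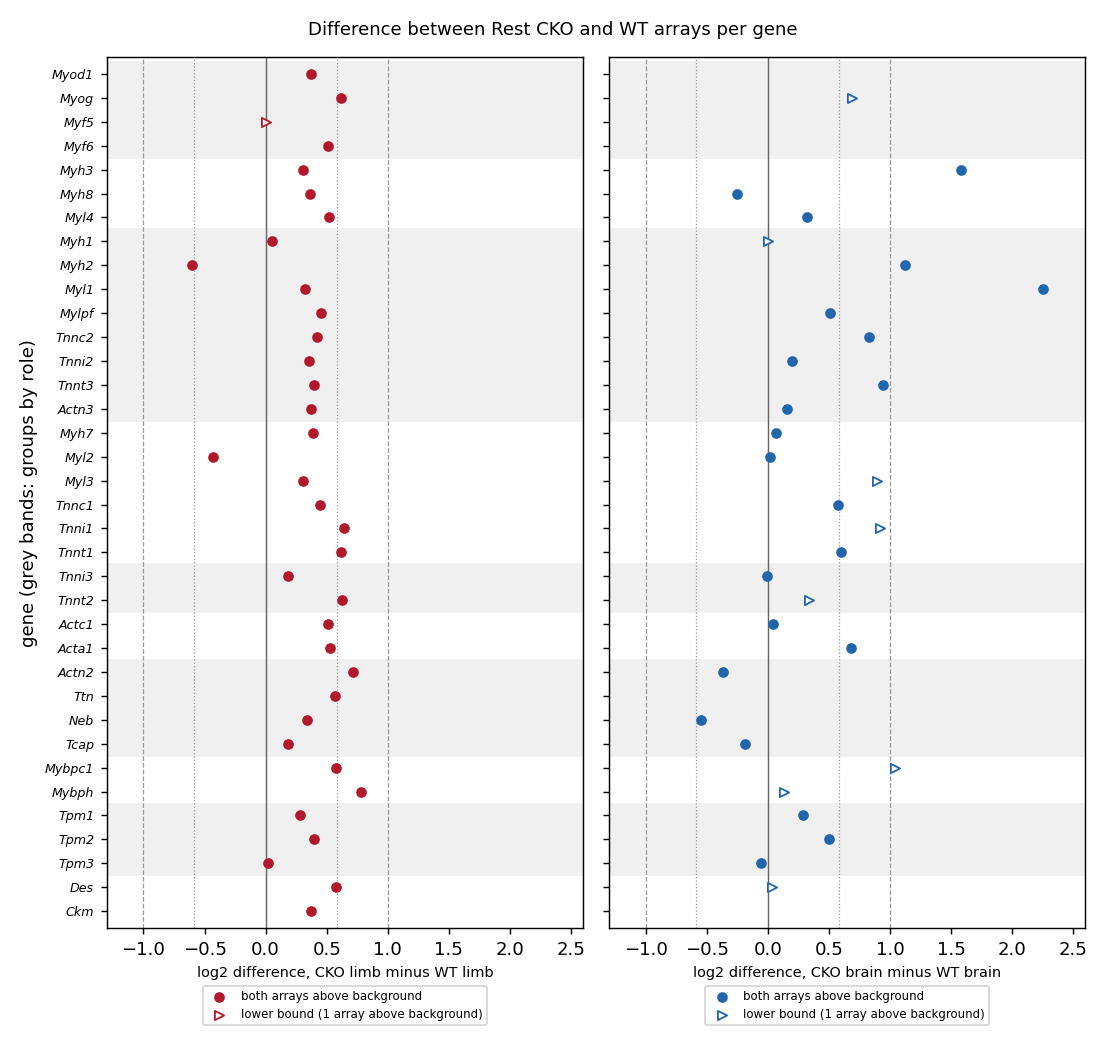
Difference in log2 level of each member, in CKO limb minus WT limb and in CKO brain minus WT brain, ordered by role, with bounds drawn as open symbols. The limb differences of most members lie between 0.30 and 0.62, whereas the brain differences range more widely, up to 2.26 for Myl1.

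Myod1, Myog and Myf6 were brighter in limb than in brain in both genotypes. Myog, which drives differentiation and fusion of myoblasts (probe at chr1:136188874-136188933, mm9), was at 3.74 in CKO limb, against 3.12 in WT limb, and at -4.67 in CKO brain, and was not well above background in WT brain. This was 1.53-fold higher in CKO limb than in WT limb, and at least 1.62-fold higher in brain of the CKO than of the WT. Over its 8 spots usable on both limb arrays the difference was 0.61 ± 0.02 (SD over spots). Myod1, which commits cells to the muscle lineage, was at 0.43 in CKO limb and 0.06 in WT limb, and was not well above background in either brain. Its 10 spots gave a difference of 0.37 ± 0.04 (SD over spots), 1.29-fold higher in CKO limb. Myf6, the late factor of maturing fibres, was at -1.39 in CKO limb and -1.90 in WT limb (1.43-fold higher in CKO limb), and was not well above background in brain. Myf5, the earliest of the factors, was near the limit of detection: at -5.37 it was well above background at 7 of 9 spots in CKO limb, at 0 of 10 in WT limb, and not in either brain. Its bound gave no fold, so 3 of the 4 factors were measurably higher in CKO limb and the earliest could not be compared.

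The embryonic and perinatal myosin chains, those of newly formed fibres, were higher in CKO limb but not uniformly higher in CKO brain. Myh3, embryonic myosin heavy chain, was at 6.16 in CKO limb and 5.85 in WT limb, and at -3.07 in CKO brain and -4.65 in WT brain. Myh8, the perinatal heavy chain, was at 4.99 in CKO limb and 4.63 in WT limb, and at -0.95 in CKO brain and -0.70 in WT brain. Myl4, an embryonic and atrial light chain, was at 4.40 in CKO limb and 3.88 in WT limb, and at -2.23 in CKO brain and -2.55 in WT brain. In limb the 3 were 1.24-, 1.28- and 1.43-fold higher in CKO. In brain Myh3 was 2.99-fold higher and Myl4 1.25-fold higher in CKO, while Myh8 was 1.19-fold lower in CKO.

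Most fast-fibre genes were higher in CKO in both tissues, apart from the adult heavy chains Myh1 and Myh2. Myl1, a fast alkali light chain (chr1:66970948-66971007, mm9), was at 6.61 in CKO limb and 6.29 in WT limb, and at -2.44 in CKO brain and -4.70 in WT brain. It was 1.25-fold higher in CKO limb than in WT limb and 4.77-fold higher in brain of the CKO than of the WT, the largest measured difference between the brain arrays among the members. A probe for another Myl1 transcript (chr1:66976853-66981100, mm9) was at 1.05 in CKO limb and 0.42 in WT limb, and was not well above background in either brain. Tnnc2, fast troponin C, was at 6.43 in CKO limb and 6.01 in WT limb, and at -2.55 in CKO brain and -3.37 in WT brain (1.77-fold). Tnnt3, fast troponin T, was at 3.02 in CKO limb and 2.62 in WT limb, and at -3.43 in CKO brain and -4.37 in WT brain (1.92-fold). These 3 genes were thus far lower in brain than in limb, and higher in CKO than in WT in both tissues. Mylpf, the fast regulatory light chain, was at 5.45 in CKO limb and 5.0 in WT limb, and at -1.73 in CKO brain and -2.24 in WT brain. Tnni2, fast troponin I, was at 4.64 in CKO limb and 4.28 in WT limb, and at -2.85 in CKO brain and -3.05 in WT brain. Both were higher in CKO, by 1.37- and 1.28-fold in limb and by 1.42- and 1.15-fold in brain. Actn3, the α-actinin of fast Z-discs, was at -0.35 in CKO limb and -0.72 in WT limb, and at -3.57 in CKO brain and -3.73 in WT brain.

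The adult fast heavy chains among the members, Myh1 and Myh2, did not share the limb pattern. Myh4, an adult fast heavy chain outside the members, was at 2.01 in CKO limb and 1.58 in WT limb, 1.35-fold higher in CKO limb. In brain Myh4 was at -3.92 in CKO and -3.61 in WT, 1.24-fold lower in CKO. Myh1 was at -0.72 in CKO limb and -0.77 in WT limb, a difference of 0.05, and at -5.85 in CKO brain. In WT brain its signal, -5.52, was not well above background, and its bound gave no fold. Myh2 was at -3.71 in CKO limb and -3.11 in WT limb, and at -3.32 in CKO brain and -4.45 in WT brain. Relative to WT, this was 1.52-fold lower in limb and 2.18-fold higher in brain, but its other probes differed from it. Another Myh2 probe, which overlaps it, gave -0.98 between the limb arrays and -0.15 between the brain arrays, while a probe elsewhere in the gene gave 0.27 between the limb arrays and was not well above background in brain. The last of its 4 probes was not well above background on any array. No single direction can therefore be given for Myh2 in either tissue.

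Slow-fibre genes were also higher in CKO limb, apart from Myl2. Tnni1, slow troponin I, was at 3.74 in CKO limb, against 3.1 in WT limb, and at -4.44 in CKO brain, with WT brain not well above background. Tnnt1, slow troponin T, was at 5.25 in CKO limb and 4.63 in WT limb, and at -1.36 in CKO brain and -1.96 in WT brain. Tnnc1, troponin C of slow and cardiac muscle, was at 3.4 in CKO limb and 2.96 in WT limb, and at -4.17 in CKO brain and -4.75 in WT brain. The 3 slow troponin genes were 1.56-, 1.53- and 1.36-fold higher in CKO limb. In CKO brain Tnni1 was at least 1.89-fold higher, Tnnt1 1.52-fold and Tnnc1 1.49-fold. Myh7, the slow heavy chain, was at 5.06 in CKO limb and 4.67 in WT limb, and at 1.78 in CKO brain and 1.72 in WT brain. It was 1.31-fold higher in CKO limb and differed by 0.07 between the brain arrays. Myl3, a slow light chain, was at 4.14 in CKO limb and 3.84 in WT limb, and at -4.47 in CKO brain, with WT brain not well above background. This was 1.24-fold higher in CKO limb and at least 1.86-fold higher in CKO brain, but its other probe pointed the other way, at -0.41 between the limb arrays and -0.18 between the brain arrays. Myl2, the slow and ventricular regulatory light chain, was at -2.06 in CKO limb and -1.62 in WT limb, 1.35-fold lower in CKO limb, and at -4.31 in CKO brain and -4.33 in WT brain. Myl2 and Myh2, the members lower in CKO limb, were both under a level of -1 on the limb arrays. So were Myf6 and Tnni3, which were higher in CKO limb.

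Of the troponin genes best known from the heart, Tnnt2, which embryonic skeletal muscle also makes, followed the slow troponins. Tnnt2 was at 3.83 in CKO limb and 3.20 in WT limb, 1.54-fold higher in CKO limb, and at -5.02 in CKO brain, with WT brain not well above background. Tnni3, cardiac troponin I, was dim everywhere, at -2.54 in CKO limb and -2.72 in WT limb, and at -3.86 in both CKO brain and WT brain. Of the cardiac markers outside the members, Gata4, Tbx20 and Pln were not well above background in either limb. Of the 9 tested in limb, 7 were higher in CKO and 1 lower. Nkx2-5, Ryr2, Nppa and Nppb were detected in CKO limb and not in WT limb, as were 8.64% of all genes. Nppa was at least 4.99-fold and Nppb at least 3.93-fold higher in CKO limb, while Nkx2-5 was at least 1.07-fold and the bound of Ryr2 gave no fold. Irx4, detected in both limbs, was 1.46-fold lower in CKO limb. Myh6, the cardiac α heavy chain, was at 0.25 in CKO limb and -0.21 in WT limb. Their part in the members' differences was not tested.

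Actins and their Z-disc partner Actn2 were higher in CKO limb. Actc1, cardiac α-actin and the main sarcomeric actin of embryonic muscle, was at 5.90 in CKO limb and 5.39 in WT limb, and at 1.13 in CKO brain and 1.08 in WT brain. Acta1, skeletal α-actin, was at 4.74 in CKO limb and 4.21 in WT limb, and at -2.71 in CKO brain and -3.39 in WT brain. Actn2, which anchors thin filaments at the Z-disc (chr13:12364990-12367362, mm9), was at 3.30 in CKO limb and 2.58 in WT limb, and at -4.60 in CKO brain and -4.23 in WT brain. In limb the 3 were 1.42-, 1.44- and 1.65-fold higher in CKO. In brain Acta1 was 1.6-fold higher in CKO, Actc1 differed by 0.04, and Actn2 was 1.29-fold lower in CKO. Actin and myosin heavy chain genes are close paralogs, so a probe's signal may include a relative's transcript, which was not tested.

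The large scaffold proteins Ttn and Neb were each read at several probes, which shared a direction in limb. Ttn, the spring that spans the sarcomere from Z-disc to midline, was at 2.62 in CKO limb and 2.05 in WT limb, and at this probe was not well above background in either brain, though another was, at -5.65 in CKO brain. All 8 Ttn probes were higher in CKO limb, by 0.04 to 0.71, with a median of 0.52. Neb, the ruler of the thin filament, was at 2.18 in CKO limb and 1.85 in WT limb, and at -4.89 in CKO brain and -4.35 in WT brain. Of its 6 probes, 5 were measured on both limb arrays, all higher in CKO limb by 0.28 to 0.52. Tcap, which caps titin at the Z-disc, was at 2.08 in CKO limb and 1.89 in WT limb, and at -3.55 in CKO brain and -3.36 in WT brain. Ttn and Neb were thus 1.48- and 1.26-fold higher in CKO limb at the probes used, while Neb was 1.46-fold and Tcap 1.14-fold lower in CKO brain. The brain value of Neb rests on the probe used alone, since its other probes were not well above background in either brain.

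The myosin-binding proteins held the member with the largest difference between the limb arrays. Mybph, myosin-binding protein H (chr1:136096659-136096976, mm9, a probe that crosses an exon junction), was at 3.23 in CKO limb and 2.45 in WT limb, a difference of 0.78 (1.72-fold). It was at -5.22 in CKO brain and not well above background in WT brain. Mybpc1, the slow myosin-binding protein C, was at 0.29 in CKO limb and -0.28 in WT limb (1.49-fold higher in CKO limb), and at -4.32 in CKO brain, with WT brain not well above background. In brain this gave Mybpc1 a fold of at least 2.05 and Mybph at least 1.10, both higher in CKO.

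Of the tropomyosins, which many non-muscle cells also make, Tpm1 and Tpm2 were higher in CKO at the probes used and Tpm3 hardly differed. Tpm1 was at 4.26 in CKO limb and 3.97 in WT limb, and at 1.09 in CKO brain and 0.81 in WT brain. Tpm2 was at 4.07 in CKO limb and 3.67 in WT limb, and at -0.64 in CKO brain and -1.15 in WT brain. Tpm3 was at 5.75 in CKO limb and 5.74 in WT limb, and at 5.57 in CKO brain and 5.62 in WT brain. Tpm1 was 1.22-fold higher in CKO in both tissues and Tpm2 1.32-fold higher in CKO limb, while Tpm3 differed by 0.02 in limb and by -0.05 in brain. In brain Tpm2 was 1.42-fold higher in CKO at the probe used. Its other probe, at -1.10 in CKO brain and -1.15 in WT brain, gave 1.03-fold. Outside the filaments, Des, the intermediate filament that links Z-discs, was at 0.83 in CKO limb and 0.25 in WT limb, and at -5.32 in CKO brain, with WT brain not well above background. Its 10 spots gave a limb difference of 0.58 ± 0.08 (SD over spots). Ckm, the creatine kinase of muscle, was at -0.86 in CKO limb and -1.23 in WT limb (1.30-fold higher in CKO limb) and was not well above background in either brain.

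**Figure D2:**
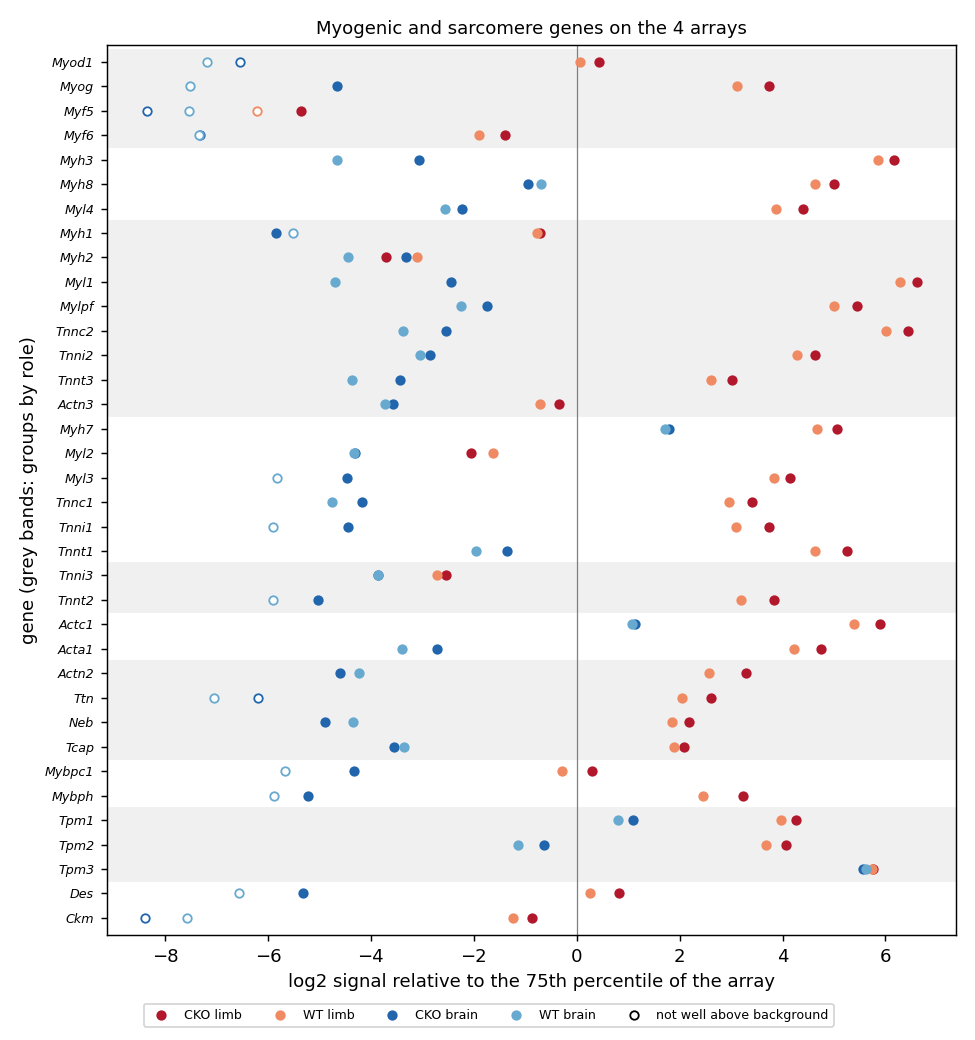
Log2 level of each member on the 4 arrays, relative to each array's 75th percentile, ordered by role, with open symbols where a probe was not well above background. CKO limb lies just above WT limb for most members, and for most members both brain arrays lie far below limb, while for Tpm3 all 4 arrays lie between 5.57 and 5.75.

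Probes other than those used gave a similar account of limb. Of 27 further probes of 16 members measured on both limb arrays, 24 differed in the same direction as the probe used, and those of Myh2, Myl3 and Tpm3 that made up the other 3 differed the other way. In brain 7 of 11 further probes of 9 members had the same direction, and 4, of Myh2, Myl3, Tnni3 and Tpm3, had the other.

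In brain, more members were detectable in CKO than in WT, and 4 were at least 2-fold brighter in CKO. Of the 36 members, 31 were well above background in CKO brain and 23 in WT brain. At the probe used, the 8 seen in CKO brain alone were Myog, Myh1, Myl3, Tnni1, Tnnt2, Mybpc1, Mybph and Des, though the other Myl3 probe was detected in both, at -3.87 in CKO brain and -3.69 in WT brain. That is 25.8% of the 31 tested, beside 9.01% of all 18965 genes, and no member was seen in WT brain alone, beside 0.807% of all genes. The lowest detected level was -6.19 in CKO brain and -5.36 in WT brain, so fainter signals counted as detected in CKO. Myh1, at -5.85 in CKO brain, lay under that WT limit, and its signal in WT brain was -5.52. Of the 31 tested, 24 were higher in CKO brain, 6 were lower and 1 had a bound of 0. The 8 seen in CKO brain alone entered as bounds, which could only be higher or 0. Of the 23 members measured on both brain arrays, 17 were higher in CKO and 6 lower, with a median of 0.29. Over the 31 tested, the median difference was 0.32 (1.25-fold), against -0.01 over all 18963 genes tested, of which 41.9% were higher in CKO brain. Myl1, Myh3, Myh2 and Mybpc1 were at least 2-fold higher in CKO brain, 4 members beside 1.37% of all genes, and none was 2-fold lower, beside 1.23%. Without Myh2, whose overlapping probe gave -0.15, the count was 3. With Tnnt3, Tnni1, Myl3, Tnnc2, Myog, Acta1 and Tnnt1, 11 members were at least 1.5-fold higher, beside 3.48% of all genes, and none was 1.5-fold lower, beside 1.99%. Of the 11, Mybpc1, Tnni1, Myl3 and Myog had bounds, and 7 passed where both arrays had to detect the probe. With normexp background correction the counts were 1 at 2-fold and 2 at 1.5-fold, and the median was 0.16. Only 4 members had a mean level above 0 over both brain arrays, with a median difference of 0.05 and 0 at 1.5-fold. The 8156 genes of that brightness had a median of -0.04, with 0.748% at least 1.5-fold higher.

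**Figure D3:**
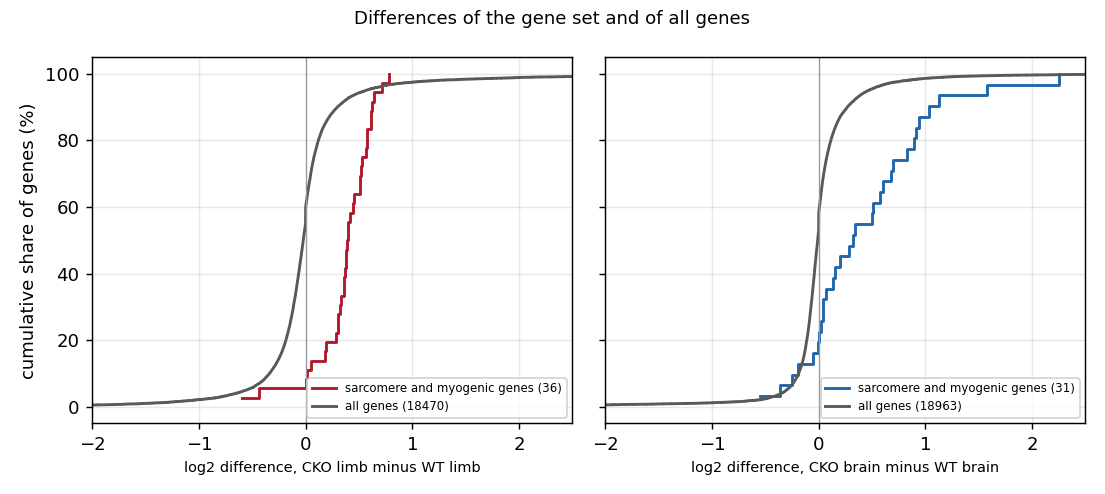
Cumulative share of the members and of all genes tested (y axis, percent) against the log2 difference (x axis), for CKO limb minus WT limb and for CKO brain minus WT brain. The members' curve lies to the right of the curve of all genes in both, with medians of 0.39 and -0.02 in limb and of 0.32 and -0.01 in brain.

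These brain signals were small beside those of limb. Over the 31 members detected in CKO brain, the signal there had a median of 1.03% of that in CKO limb, and 14 members were under 1%. Over the 23 detected in WT brain, the median was 1.37% of WT limb, and 9 were under 1%. For the 10 members other than Myh2 that were at least 1.5-fold higher in CKO brain, the gain in signal over WT brain came to 0.0866% to 2.10% of the signal in CKO limb, with a median of 0.155%. The gains of Mybpc1, Tnni1, Myl3 and Myog are lower limits, since WT brain was not well above background. Their whole CKO brain signal, which no gain can exceed, was 4.09%, 0.343%, 0.256% and 0.295% of that in CKO limb. The gain was thus under 1% of the CKO limb signal for 9 of those 10, all but Mybpc1. For Myh2, which was dim in limb, it came to 70.8%.

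**Figure D4:**
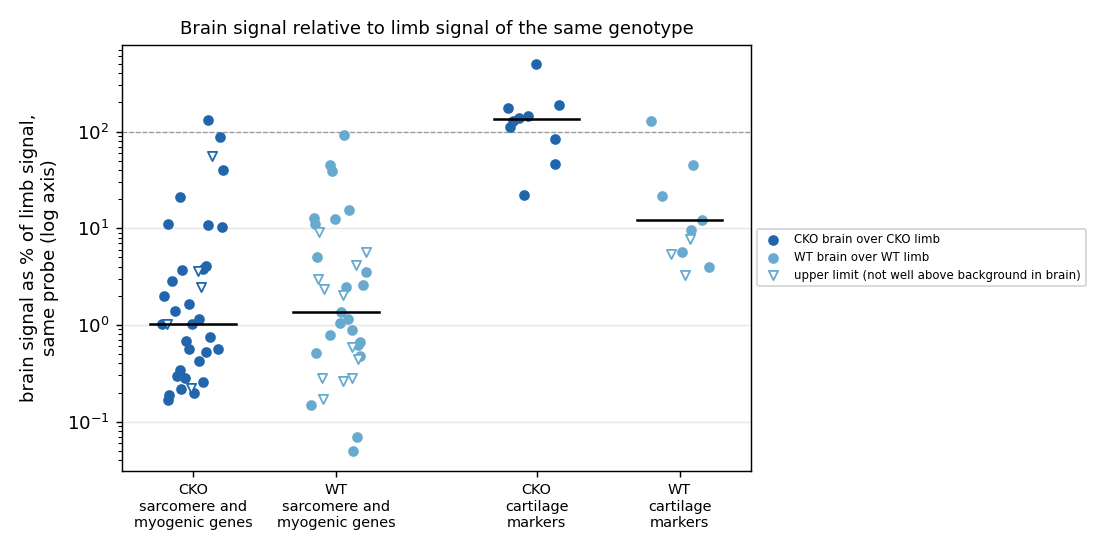
Signal in brain as a percent of the signal in limb at the same probe (log axis), for CKO and for WT, for each member and each cartilage marker, with filled points where brain was well above background, open triangles for upper limits and bars for medians of the filled points. The members' medians are 1.03% in CKO and 1.37% in WT, and those of the cartilage markers 134% in CKO and 12.1% in WT.

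Between tissues, nearly all members were far brighter in limb than in brain in both genotypes. In WT, 35 of 35 members tested were higher in limb, beside 50% of all genes, 34 of them at least 2-fold, beside 18.8% of all genes, with a median difference of 6.19. In CKO, 35 of 36 were higher in limb, beside 50.5% of all genes, 33 at least 2-fold, beside 16.9%, with a median of 6.52. Tpm3 was under 2-fold in both genotypes, at 1.14-fold in CKO and 1.08-fold in WT. In CKO, Myf5 had a bound of at least 1.77-fold, and Myh2 was 1.31-fold lower in limb than in brain. Members bright enough to be measured in all 4 arrays reached 532-fold in CKO and 2030-fold in WT for Myl1, and 600.2-fold in CKO and 1453-fold in WT for Myh3. Myh7, Actc1, Tpm1 and Tpm3 were the only members above a level of 0 on both brain arrays. Myh7, Actc1 and Tpm1 were 9.68-, 27.3- and 8.97-fold higher in CKO limb than in CKO brain. In WT the same genes were 7.76-, 19.8- and 8.99-fold higher in limb than in brain. Of the members dimmer in brain, Myh2, Tnni3, Myl2 and Actn3 had smaller folds than Actc1 in both genotypes, and Tpm2 and Mybpc1 did in CKO.

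For the 23 members measured on all 4 arrays, the genotype difference in limb was set against that in brain. The limb difference minus the brain difference had a median of 0.01 and ranged from -1.93 to 1.08, with 12 members above 0 and 11 below. Over these 23, neither tissue typically had the larger difference, though single genes did. Myl1 differed by 0.32 in limb and 2.26 in brain, and Actn2 by 0.72 in limb and -0.36 in brain. With normexp the median was 0.19. Members with a mean level above 0 on the pair had a median difference of 0.43 in limb (28 members) and 0.05 in brain (4 members). These are different sets, so the medians are not like for like. The 4 in brain were Myh7, Actc1, Tpm1 and Tpm3, which in limb differed by 0.39, 0.51, 0.28 and 0.02. These differences of differences were not tested.

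Other muscle genes, in 4 further lists, stood on the same side in limb as the members. Of 83 tested, 74 were higher in CKO limb and 8 lower, with a median of 0.40, where 40% of all genes were higher. At 1.5-fold, 11 passed upward and 0 downward, beside 4.78% and 4.72% of all genes. Of the 8 lower, Nebl differed most, at 1.49-fold lower in CKO limb, then Dmd at 1.23-fold. Pax3, of the progenitor list, was not well above background in either limb. Genes of muscle progenitors and myoblasts had 15 of 18 higher in CKO limb, with Msc at 1.70-fold and Pax7, a satellite and progenitor cell factor, at 1.54-fold. Neuromuscular and excitation-contraction genes had 20 of 20 higher, with Casq1, a calcium store protein, at 1.65-fold and Hrc at 1.64-fold. Membrane and metabolism genes had 17 of 20 higher, led by Ckmt2, mitochondrial creatine kinase, at 2.52-fold, then Fabp3 at 1.61-fold, Pygm at 1.58-fold and Cav3 at 1.55-fold. Other sarcomere and Z-disc genes had 22 of 25 higher, with Mybpc3 at 1.61-fold, Xirp1 at 1.52-fold and Trim63 at 1.51-fold. In brain these lists stood closer to 0, with 48 of 70 tested higher in CKO, 16 lower and a median of 0.09, beside 41.9% of all genes higher. Of the 70, 18 were detected in CKO brain alone, and their bounds could only be higher or 0, with 6 at 0. In the progenitor list Meox2 was 2.70-fold and Eya1 1.59-fold higher in CKO brain, and in the other lists Hrc was 2.13-fold and Unc45b 1.73-fold higher.

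Markers of other cell types also differed between the paired arrays, and their part in the members' differences was not tested. In limb, the CKO array was at least 1.5-fold below the WT array for 8 of 8 red blood cell genes, whose median difference was -1.34, with a summed level of 600.4 times the 75th percentile in CKO limb and 1233 in WT limb. The epidermis list had a median of -0.60 and the tendon and connective tissue list -0.24, with Col1a1 4.24-fold lower in CKO limb. The cartilage list had a limb median of -0.22, with 8 of 10 genes below 0. Epyc was 2.69-fold, Comp 1.85-fold and Hapln1 1.51-fold lower in CKO limb, and Col9a1 was 1.61-fold higher. In the pan-neuronal list 8 of 10 genes were at least 1.5-fold higher in CKO limb, with a median of 1.48. Smooth muscle genes had a median of 0.15 and cardiac markers 0.33. In brain, 10 of 11 cartilage genes were at least 2-fold higher in CKO brain, with a median of 2.91 and a summed level of 18.7 in CKO brain and 6.95 in WT brain. Col9a1 was 33.7-fold, Lect1 17.1-fold and Acan 16.6-fold higher, and Matn1, Hapln1, Comp and Epyc were not well above background in WT brain. Unlike the members, the 10 cartilage genes measured in both CKO tissues had a median brain signal of 134% of that in limb, against 12.1% over 7 genes in WT. In brain the tendon and connective tissue list had a median of 0.62, with Twist2 at 2.52-fold, Twist1 at 2.41-fold and Col1a2 at 2.10-fold higher in CKO brain, while Col1a1 was 2.5-fold lower. Smooth muscle genes had a brain median of 0.17, with Cnn1 at 1.78-fold and Lmod1 at 1.57-fold higher in CKO brain. Cardiac markers had a brain median of 0.23, with Tbx20 at 1.92-fold and Nppa at 1.66-fold higher in CKO, while Nkx2-5, Gata4 and Pln were not well above background in either brain.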

How the data were processed

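Total RNA was labelled with Cy3 and hybridised to 1 slide of 60-base probes. The deposited files are the authors' scanner output, with intensity values from Agilent Feature Extraction 9.5.3.1, per the file headers: the processed signal is background-subtracted and not scaled between arrays. From it, log2 minus each array's 75th percentile over non-control spots was computed with Python 3.11.15, numpy 2.4.6 and pandas 2.3.3. Outlier spots (58 to 82 per array) were left out and spots of a probe averaged. A probe counted as detected where most of its spots were well above background, and a gene was tested in a pair where at least 1 array detected it. Thresholds were 2-fold and 1.5-fold. Probe coordinates are those of mm9, per the file headers. All members were described, and in the 14 further lists up to 4 genes per genotype comparison with at least 1.5-fold differences, detected on both arrays, were named. A gene that this rule would name is not reported here. The members and lists were chosen with earlier results of these data known. Alternatives were median and quantile scaling, normexp (limma 3.58.1, R 4.3.3, offset 50), the mean of a gene's probes, stricter and no detection filters, saturated probes left out, the deposited value table, and probe names by accession. The calculation was tested on simulated data.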

Additional observations from a re-analysis of the deposited data

Results flagged for a closer look

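The genotype difference had opposite signs in limb and brain for 8 members measured on all 4 arrays, with 1 array per group, and these differences between tissues were not tested. In Tcap, Tnni3, Tpm3 and Myl2 at least 1 of the differences was within 2 SDs of a single-spot difference at that brightness, and in the other 4 both were larger. For Actn2 it was 0.72 in limb and -0.36 in brain, 1.08 apart. For Neb it was 0.34 in limb and -0.55 in brain, 0.88 apart, and its other probes were not well above background in either brain. For Myh8 it was 0.36 in limb and -0.25 in brain, 0.61 apart. For Myh2 it was -0.60 in limb and 1.12 in brain, -1.72 apart, and the other Myh2 probes did not share both directions. Actn2 and Neb were under a level of -4 on both brain arrays, where single spots of dim probes had an SD of 0.15.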

How the results depend on the processing

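No paired analysis was possible because each group had 1 array, and no array could be left out. No difference of at least 2-fold changed sign under another setting. No member reached 2-fold between the limb arrays, so this check could not bear on that comparison. In limb, 31 to 34 of 36 members were higher in CKO under every setting that tested 36. Signs did change there: 33 higher and 2 lower became 31 and 4 with the mean of probes. The count of members at least 1.5-fold lower in CKO limb, 1, was 0 with median scaling, quantile scaling, normexp and the mean of all probes. In brain the counts moved more: the 4 members at least 2-fold higher in CKO became 1 with normexp and 8 without a detection filter. The 11 at least 1.5-fold higher became 2 with normexp and 7 where both arrays had to detect the probe. The 0 at least 1.5-fold lower became 1 with quantile scaling and 2 without a filter. The brain median of 0.32 was 0.16 with normexp, 0.24 with the mean of probes and 0.50 without a filter. Normexp with its offset shrinks differences of low signals by construction. In WT, 22 members were at least 2-fold and at least 1.5-fold higher in limb than in brain where both arrays had to detect them, against 34. The WT median of 6.19 was 6.09 with median scaling, 5.14 with normexp, 5.35 with the mean of probes and 6.51 without a filter. The CKO median of 6.52 was 5.64 with normexp and 5.48 with the mean of probes. The median limb difference minus brain difference, 0.01, was 0.19 with normexp, 0.078 with the mean of probes and -0.027 without a filter. Brain values of most members lie near background, which limits their precision.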

Other observations

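A probe for another Tpm1 transcript (chr9:66871867-66871926, mm9) ran against the probe used for the gene between tissues. It was at -5.14 in CKO limb and not well above background in WT limb, but at -2.43 in both CKO brain and WT brain.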
